A study of Mus musculus with 18 samples.

Results

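Neurexins, neuroligins and proteins that work with them were followed across the cell types of 2 brain regions of mice raised with and without gut microbes. The set holds 9 genes chosen by symbol from the gene list of the matrices, which lists 30905 genes: the neurexins Nrxn2 and Nrxn3, the neuroligins Nlgn1, Nlgn2 and Nlgn3, the leucine-rich repeat proteins Lrrtm3 and Lrrtm4, the contactin-associated protein Cntnap2 and the cerebellin Cbln2. All 9 were found in the matrices. Single-nucleus RNA sequencing was done on the hippocampus (Hip) and the prefrontal cortex (PFC) of 9 male Kun Ming mice aged 8 weeks, an outbred stock, with 1 library per mouse and region, 18 in all. The 3 germ-free (GF) mice had no gut microbiota, the 3 specific pathogen-free (SPF) mice were the colonized controls, and the 3 colonized germ-free (CGF) mice were GF mice housed with SPF mice from 4 weeks of age for 4 weeks. CGF mice thus lacked microbes in early life, which limits them as a model of a normal microbiota. The comparisons ask how these synaptic genes stand in neurons and glia when the microbiota is absent and whether colonization shifts them.

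Neurexins sit on the axon terminal and reach across the synaptic cleft, where they bind neuroligins, LRRTM proteins and, through secreted cerebellins, receptors on the other side. Neuroligin 1 is found mainly at excitatory synapses, neuroligin 2 mainly at inhibitory synapses and neuroligin 3 at both. LRRTM proteins organize excitatory synapses, and Cntnap2, a relative of neurexins, gathers potassium channels along myelinated axons and also acts during neuronal development.

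The genes differ greatly in span, the distance between the first and the last base of the gene. In mm10 (GRCm38), Cntnap2 lies on the plus strand of chromosome 6 from 45059357 to 47304213 and spans 2244.9 kb. Nrxn3 spans 1612.1 kb of the plus strand of chromosome 12, from 88722876 to 90334935. Nlgn1 covers 906.2 kb of the minus strand of chromosome 3, from 25426215 to 26332460, and Lrrtm4 covers 791.3 kb of the plus strand of chromosome 6, from 80018877 to 80810143. Lrrtm3, 161.8 kb long, lies on the minus strand of chromosome 10 from 63928472 to 64090277, inside the gene Ctnna3 on the other strand, so that reads of the 2 can be told apart only by strand. Nrxn2 takes up 125.4 kb of the plus strand of chromosome 19, from 6418731 to 6544169. Nlgn3 takes up 26.8 kb of the plus strand of chromosome X, from 101299168 to 101325963. Nlgn2, on the minus strand of chromosome 11 from 69823122 to 69837784, spans 14.7 kb, and Cbln2, whose place is given with its levels, spans 7.2 kb and is the shortest of the 9. The median span of all annotated genes is 12.6 kb.

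The 150 bases before a RefSeq transcript start of 4 of these genes are printed because the members did not move as one set: Nlgn1, Lrrtm4 and Cntnap2 were lower in GF neurons of Hip and higher in those of PFC, while Nlgn2 was lower in PFC. The sequences are from RefSeq (GRCm38.p6), each from a start within 1000 bases of the gene start given above. The start is that of the gene for Lrrtm4 and Nlgn2, and it lies 551 bases inside the gene for Nlgn1 and 704 bases inside it for Cntnap2, whose windows are therefore within the gene. Capitals mark matches, on either strand, to a GC box, spelled GGGCGG, or to a TATA box, spelled TATAAA. The half-site of the cAMP response element, TGACG, was searched as well.
Nlgn1, chr3:26331910-26332059, minus strand: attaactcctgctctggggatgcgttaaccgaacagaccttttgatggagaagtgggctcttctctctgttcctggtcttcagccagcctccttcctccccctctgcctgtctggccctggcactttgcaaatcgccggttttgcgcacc
Lrrtm4, chr6:80018727-80018876, plus strand: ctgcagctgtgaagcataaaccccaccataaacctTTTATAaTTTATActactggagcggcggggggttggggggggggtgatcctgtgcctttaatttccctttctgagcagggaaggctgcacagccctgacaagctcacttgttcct
Cntnap2, chr6:45059911-45060060, plus strand: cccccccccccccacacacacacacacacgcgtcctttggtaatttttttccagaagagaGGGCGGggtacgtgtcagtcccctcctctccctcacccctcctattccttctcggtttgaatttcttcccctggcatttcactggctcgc
Nlgn2, chr11:69837785-69837934, minus strand: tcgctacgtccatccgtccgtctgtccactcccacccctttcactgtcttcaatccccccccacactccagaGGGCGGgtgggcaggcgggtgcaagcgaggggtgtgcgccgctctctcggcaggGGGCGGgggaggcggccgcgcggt
The Nlgn2 window holds 2 GC boxes, that of Cntnap2 1 GC box and that of Lrrtm4 2 TATA-box matches, both read on the other strand. None of the 3 motifs was found in these bases of Nlgn1. RefSeq promoters were found for 6 of the 9 genes, in 11 windows. A GC box was present in 2 of the 11 windows and in 28.6% of all 32851 promoter windows of the same length, a TATA box in 1 of 11 and in 7.57%, and the half-site in 0 of 11 and in 13.3%. GC content was 71.3% in the Nlgn2 window and 52.0 to 57.3% in the other 3.

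The libraries differed between groups in ways that touch every comparison. In Hip, the libraries were of like size, with 49067853 to 63217083 unique molecular identifiers (UMIs) each. Mitochondrial UMIs made up 0.645 to 1.10% of GF libraries against 0.0770 to 0.471% of SPF and CGF libraries. GF nuclei of Hip were also shallower than SPF nuclei, with library medians of at most 5810 UMIs per nucleus against at least 6132. The CGF medians, from 5444 up to 7560, overlapped the GF ones. GF and SPF libraries of Hip did not overlap in either measure, so group and these measures cannot be told apart there. In PFC, GF libraries held 59126586 to 71463928 UMIs with 0.359 to 0.594% mitochondrial, whereas SPF and CGF libraries held 20336250 to 26949210 with 1.28 to 3.22% mitochondrial, so that in PFC the GF group and library quality cannot be told apart. In PFC most GF nuclei of each neuron and glial type also fell into a cluster apart from that of most SPF and CGF nuclei. In Hip this held for oligodendrocytes and in part for excitatory neurons. Hip interneurons, OPCs and microglia each lay in 1 cluster, and astrocytes of all groups shared their main cluster. The clusters that differed are named beside the results. This grouping depended on the clustering. In an alternative with more components, Hip astrocytes also split by group. Their largest cluster then held 90 GF, 1949 SPF and 2476 CGF nuclei, and the next held 1517 GF, 22 SPF and 22 CGF nuclei. The paper clustered microglia again on their own and reports Hip subpopulations enriched in GF mice. A shared cluster here therefore does not show that nuclei of the groups were alike. The 153 pairs of libraries shared at most 0.362% of their cell barcodes. Of 139924 barcodes, 138000 were kept. Cell types were named from their markers, and UMIs were summed per mouse and type, giving 42630 excitatory neurons and 4669 interneurons in Hip. Clusters that took no name were left out of the sums, with 1410 of 71398 nuclei in Hip and 7030 of 66602 in PFC.

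Levels are given first as UMIs of a gene per 1000000 UMIs of a cell type in a mouse (CPM), as mean ± SD over 9 mice unless another n is given, and no level is compared between genes because these values are not per length. Among the neuron subtypes of Hip, Nrxn3 was highest in Sst interneurons (14520 ± 2487) and Vip interneurons (13300 ± 2080), whose ranges overlapped. It was lowest in dentate granule cells, at 832 ± 321, and the highest of the 9 mice there (1445) was below the lowest in any other subtype (2873, Lamp5 interneurons). Nrxn2 was highest in Vip interneurons, at 301 ± 42.7, above the range of every other subtype, and it fell from 208 ± 15.3 in Sst interneurons to 118 ± 18.2 in dentate granule cells with neighbouring ranges overlapping at each step.

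Cntnap2 showed the widest contrast of the axonal genes between Hip subtypes. Vip interneurons had 10890 ± 2128, apart from Pvalb interneurons with 6306 ± 993, and dentate granule cells had 313 ± 106, 34.9 times less than Vip interneurons. The subtypes between, from Lamp5 interneurons (5412) to the subiculum (3239), overlapped with their neighbours. Cbln2, which is secreted and bridges neurexins to postsynaptic receptors, is encoded on the plus strand of chromosome 18 from 86711110 to 86718283. It was at 58.7 ± 14.6 in Vip interneurons of Hip, with a range of 38.1 to 87.8 over the 9 mice. In the other 7 Hip subtypes its mean was between 0.994 and 3.12 and no mouse exceeded 6.52.

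Among the postsynaptic genes, Nlgn1 was ordered from CA3 (6356 ± 1012) and CA1 (5196 ± 730) pyramidal cells down to Pvalb interneurons (1616 ± 270), with the ranges of all neighbours overlapping. Lrrtm4 ran the other way among excitatory neurons, with 10480 ± 1868 in dentate granule cells, 1542 ± 356 in CA3 and 1083 ± 264 in CA1. Pvalb interneurons, at 4436 ± 1070, were the lowest of the 6 subtypes above that gap, and their range did not reach that of CA3. Lrrtm3 was at 590 ± 53.0 in the subiculum, 175 ± 34.6 in dentate granule cells and 71.2 ± 19.6 in CA1, and the ranges of Lamp5 interneurons, dentate granule cells and CA1 did not overlap. Nlgn2 stayed between 28.5 (CA3) and 42.3 (Lamp5 interneurons), and Nlgn3 between 31.6 (Pvalb interneurons) and 58.6 (dentate granule cells), in both cases with all neighbours overlapping.

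In PFC, Nrxn3 was at 18240 ± 3312 in Sncg interneurons, with a range of 14730 to 23050 that lay above that of every other subtype, and at 10000 ± 1474 in Sst interneurons, next in order. Near-projecting Tshz2 neurons were lowest, with 2639 ± 643. Cbln2 was again highest in Vip interneurons, at 73.9 ± 17.6, and its range there overlapped that of near-projecting neurons (33.0 ± 14.3). Cntnap2 was highest in 5 interneuron subtypes, between 5791 ± 2195 in Sst and 4166 ± 747 in Sncg interneurons, and lowest in layer 6b neurons, at 907 ± 339 in 8 mice (2 GF, 3 SPF and 3 CGF).

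Among the postsynaptic genes of PFC, Nlgn1 was highest in layer 5 Fezf2 neurons (4370 ± 1255) and upper-layer neurons (3863 ± 816), and it had the lowest mean in deep-layer intratelencephalic neurons (1085 ± 167 in 6 mice, of which 1 was GF, 3 SPF and 2 CGF). The mean of this subtype thus weights the 3 groups unequally. Lrrtm4 was at 4333 ± 1367 in Vip interneurons and 3928 ± 1325 in upper-layer neurons, and at 659 ± 169 in layer 6 corticothalamic and 534 ± 264 in near-projecting neurons. Lrrtm3 had its highest mean in layer 6 corticothalamic neurons, at 619 ± 96.6, and its lowest in Sncg interneurons, at 224 ± 47.0. Apart from Nrxn3 in Sncg interneurons, no PFC subtype at the top of an order was separated from the next, and the wide SDs include the differences between groups described below.

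**Figure D1:**
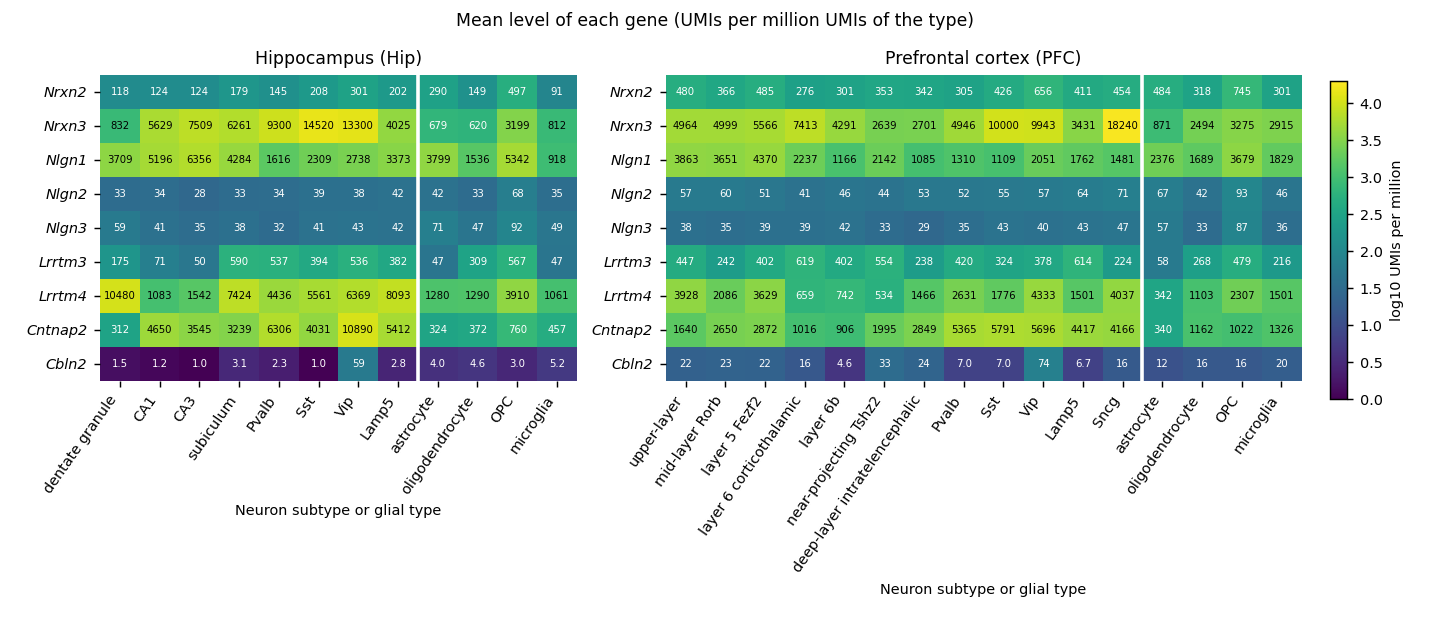
Mean level of each gene (CPM of the type, log colour scale) in neuron subtypes and 4 glial types of Hip and PFC, averaged over the mice with enough nuclei. Cbln2 stands out in Vip interneurons (58.7 in Hip and 73.9 in PFC), and Nrxn3 and Cntnap2 are low in dentate granule cells (832 and 313).

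Glial cells carried some of these transcripts as well. Oligodendrocyte precursors (OPCs) had the highest Nrxn2 of all Hip cell types, at 497 ± 68.7, above astrocytes (290 ± 23.0) without overlap, and the highest mean in PFC, at 745, where astrocytes (484) overlapped. Free RNA from broken neurons can reach any droplet, so each glial level was set beside that of 6 excitatory markers in the same cells, which stood at 46.5 to 87.4% of their level in excitatory neurons by median. On that measure 40 of 72 gene and glial type pairs lay above the markers. OPCs were above it for 8 of the 9 genes in each region, and Nrxn2 reached 377% of its excitatory level in Hip OPCs. Cntnap2 was at or below the markers in all 8 pairs, and Lrrtm4 was above them only in OPCs, so this measure does not set their UMIs in the other glia apart from free RNA. The markers are a loose reference, because a gene can lie far below them. Lrrtm4, for example, was at 342 in PFC astrocytes against 2707 in excitatory neurons. A gene at or below the markers is therefore not shown to be background.

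The comparison of GF with SPF mice in Hip excitatory neurons found 4 of the 9 genes lower in GF mice and 0 higher: Nrxn3, Nlgn1, Lrrtm4 and Cntnap2, the 4 with the longest spans. The test was the quasi-likelihood test of edgeR on summed UMIs of 9 mice, with Benjamini-Hochberg adjustment over all genes tested and a threshold of 0.05, and values are CPM after scaling by the TMM method. Of all 18640 genes tested, 46.4% passed, 25.2% as higher and 21.2% as lower in GF mice, and a count of 4 of 9 is close to that share. Values of the 2 groups were fully apart for 6 of the 9 genes and for 56.4% of all genes.

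Mouse numbers follow the labels, and those of GF mice 6 and 7 may be exchanged, as the study's own library summary has them the other way round. Nrxn3 was at 3331, 2545 and 3009 scaled CPM in GF mice 5, 6 and 7, and at 5219, 4918 and 4801 in SPF mice 30, 31 and 32. The groups did not overlap, and GF mouse 6 was the lowest. The log2 fold change was -0.75 (SE 0.095), a 1.68-fold lower level, with an adjusted p of 0.000289 by edgeR.

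For Cntnap2, GF mice had 2094, 1567 and 1755 and SPF mice 3216, 2821 and 2669. All GF values lay below all SPF values. The change was -0.69 on the log2 scale (SE 0.12, adjusted p 0.00138 by edgeR), or 1.61-fold.

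Nlgn1, the neuroligin of excitatory synapses, was measured at 3639, 3356 and 3532 in GF mice and at 5525, 5218 and 4730 in SPF mice. The GF mice were close to each other and below every SPF mouse. Its log2 fold change was -0.56 (SE 0.077, adjusted p 0.000442 by edgeR). Lrrtm4 was at 4365, 3667 and 3307 in GF mice and 5343, 5824 and 4731 in SPF mice, again without overlap, and its change of -0.49 (SE 0.12) had an adjusted p of 0.00679 by edgeR.

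The other 5 genes did not pass in Hip excitatory neurons. Nrxn2 had 115, 139.5 and 147 in GF mice and 142, 135 and 138 in SPF mice, with overlap and a log2 fold change of -0.05 (SE 0.084, adjusted p 0.659 by edgeR) that turned to 0.11 when libraries were scaled by their totals. Nlgn2 had 36, 38 and 36.4 in GF mice and 32.7, 30.1 and 35.3 in SPF mice. These groups lay narrowly apart, and the change of 0.17 (SE 0.076) had an adjusted p of 0.0936 by edgeR. With library totals Nlgn2 passed at 0.33 (adjusted p 0.0110 by edgeR), and Nlgn3 passed at 0.33 (adjusted p 0.0212 by edgeR). In the fit with TMM scaling Nlgn3 (0.17, adjusted p 0.145), Lrrtm3 (-0.12, adjusted p 0.490, and 0.04 with library totals) and Cbln2 (0.24, adjusted p 0.499, from 67 to 133 UMIs per GF mouse) had SEs of 0.090, 0.14 and 0.27.

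Interneurons of Hip added Nrxn2 and Lrrtm3 to the same list: 6 of 9 genes were lower in GF mice and 0 were higher, against 20.9% lower, 23.2% higher and 44% in all among the 13558 genes tested there. Complete separation of the 2 groups held for 7 of the 9 genes and for 53% of all genes. Nrxn3 was at 8769, 7597 and 8225 in GF mice and 13810, 13190 and 12820 in SPF mice. The groups did not overlap, and the log2 fold change was -0.70 (SE 0.067, adjusted p 1.07e-05 by edgeR). Lrrtm4 stood at 5028, 3861 and 4034 in GF mice and at 6242, 7039 and 6109 in SPF mice, without overlap, a change of -0.59 (SE 0.097, adjusted p 0.000338 by edgeR).

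Cntnap2 in Hip interneurons had 3941, 3567 and 4883 in GF mice and 6458, 5908 and 5667 in SPF mice, and GF mouse 7 came closest to the SPF range. Its change was -0.54 (SE 0.13, adjusted p 0.00359 by edgeR). Nlgn1 was at 1934, 1630 and 1893 against 2609, 2600 and 2444, also without overlap (-0.49, SE 0.075, adjusted p 0.000211 by edgeR). Nrxn2 was lower by a smaller step, with 176, 183 and 188 in GF mice and 236, 212 and 209.5 in SPF mice (-0.27, SE 0.078, adjusted p 0.0132 by edgeR). Lrrtm3 had 380, 341 and 412 in GF mice and 451, 469 and 428 in SPF mice (-0.25, SE 0.080, adjusted p 0.0205 by edgeR). These 2 calls did not hold in every fit with 1 mouse left out, although the changes kept their sign. Nrxn2 did not pass without SPF mouse 30 (-0.21, adjusted p 0.0756 by edgeR). Lrrtm3 did not pass without GF mouse 6 (-0.18, adjusted p 0.0754 by edgeR), SPF mouse 30 (-0.25, adjusted p 0.0597) or SPF mouse 31 (-0.22, adjusted p 0.0744). Both were also lost with library totals, at -0.13 (adjusted p 0.18 by edgeR) for Nrxn2 and -0.12 (adjusted p 0.193 by edgeR) for Lrrtm3. Nlgn2, the neuroligin of inhibitory synapses, had 42.7, 44.7 and 42.3 in GF mice and 36.9, 36.6 and 37.2 in SPF mice. Its 2 groups lay apart, and the change of 0.23 (SE 0.095) had an adjusted p of 0.0674 by edgeR, and it passed at 0.36 with library totals (adjusted p 0.0100).

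**Figure D2:**
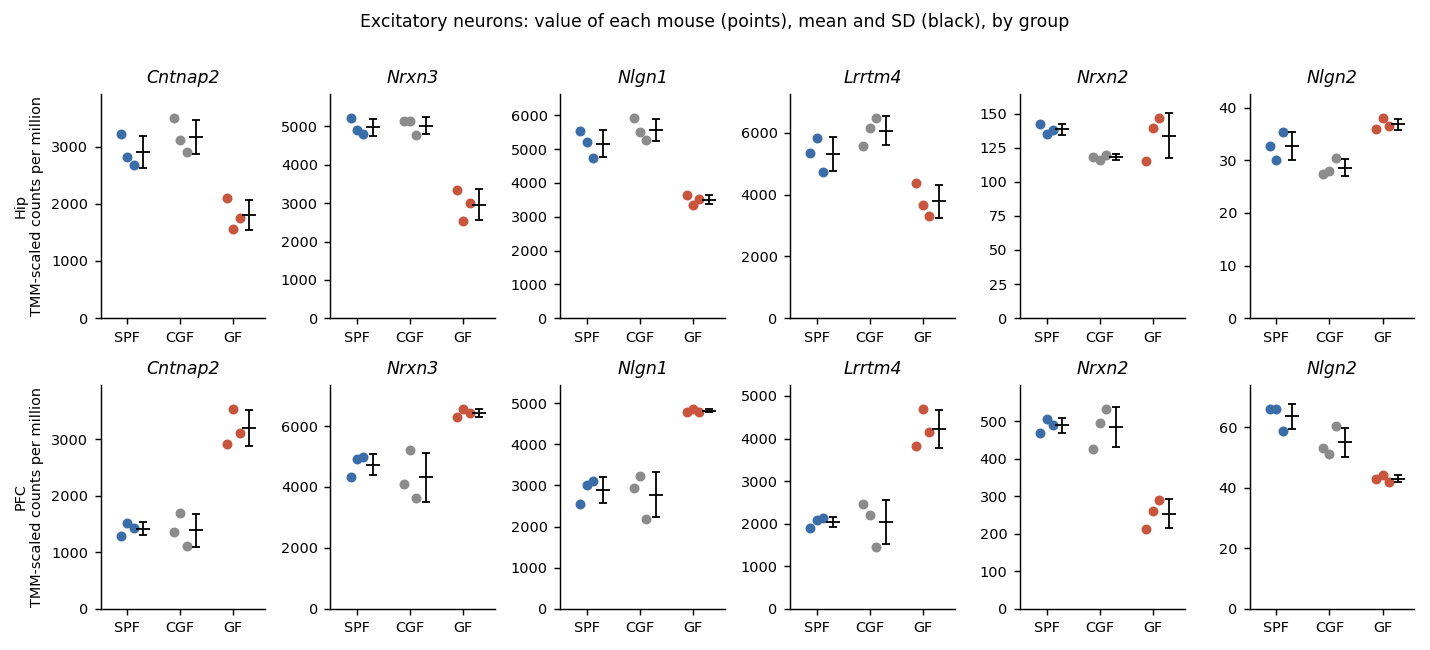
Scaled CPM in excitatory neurons of each mouse for 6 genes, with SPF, CGF and GF mice side by side, Hip in the upper row and PFC in the lower row. Points are mice, and black dashes with bars are group means with the SD. Cntnap2 is lower in GF than in SPF mice in Hip (1567 to 2094 against 2669 to 3216) and higher in PFC (2916 to 3541 against 1291 to 1526).

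The same direction was seen inside neuron subtypes of Hip, measured as CPM without the TMM scaling and given here as a description. Nrxn3, Nlgn1, Lrrtm4 and Cntnap2 each had a lower GF mean in 8 of 8 subtypes, with median log2 ratios of -0.52, -0.36, -0.47 and -0.41. All 3 GF mice were below all 3 SPF mice in 7 subtypes for Nrxn3 and Nlgn1, in 6 for Cntnap2 and in 5 for Lrrtm4. Nlgn2 had a higher GF mean in 8 of 8 subtypes (median 0.31) and Nlgn3 in 7 of 8 (0.31), with GF mice apart from SPF mice in 2 and 4 of them. The subtype sums leave out excitatory clusters that took no subtype name.

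In Hip the changes of genes at large were ordered by gene span. Among all genes tested in Hip excitatory neurons, the median log2 fold change was 0.59 under 10 kb, 0.14 from 10 to 30 kb, -0.16 from 30 to 100 kb, -0.32 from 100 to 300 kb and -0.48 over 300 kb. In the last class, 70.1% of 595 genes passed as lower in GF mice and 2.86% as higher. Against the median of its own class, Nlgn1 differed by -0.08, Lrrtm4 by -0.01, Cntnap2 by -0.21 and Nrxn3 by -0.27. Removing the trend of each library on length and GC content ended 3 of the 4 calls in excitatory neurons and 5 of the 6 in interneurons. Nrxn3 passed in both cell types after the trend was removed, at -0.29 (SE 0.073, adjusted p 0.0138 by edgeR) and -0.25 (SE 0.056, adjusted p 0.00610 by edgeR). Whether span, RNA quality or the microbiota accounts for any of these calls, that of Nrxn3 among them, was not tested.

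**Figure D3:**
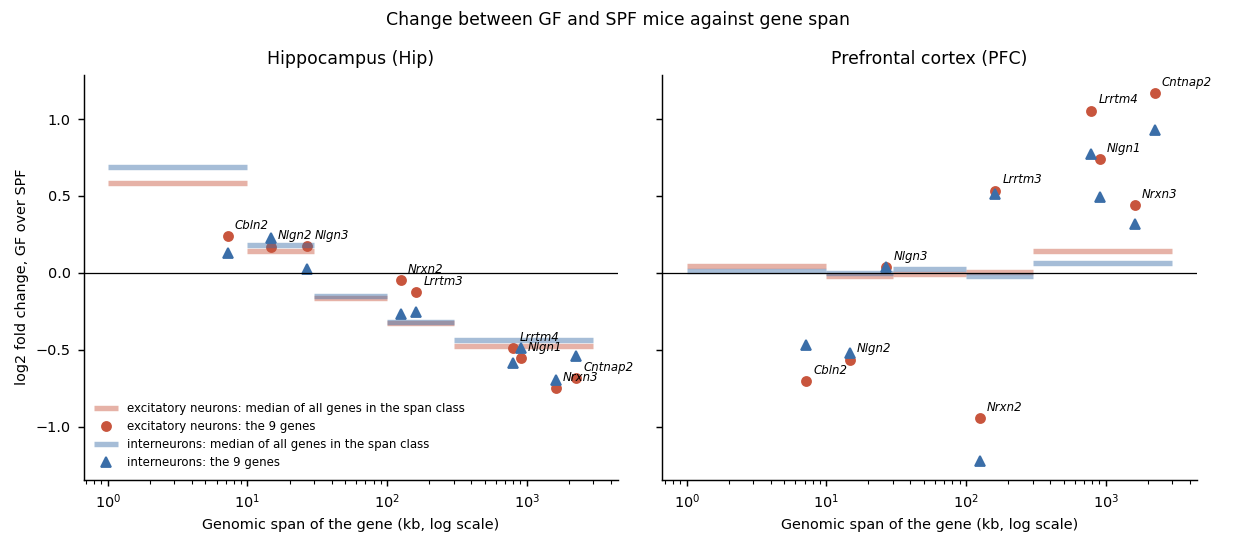
Log2 fold change of GF over SPF mice in neurons against gene span in kb (log axis), with bars for the median of all genes in 5 span classes and points for the 9 genes. In Hip excitatory neurons the bars fall from 0.59 to -0.48 and the 4 longest genes lie near the last bar, whereas in PFC excitatory neurons the bar over 300 kb is at 0.14 and Cntnap2 and Lrrtm4 lie 1.03 and 0.92 above it.

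Other measures moved with the GF group in Hip neurons. In excitatory neurons the summed level of 7 microglial markers was 70.9 to 83.5 CPM in GF mice and 49.4 to 58.2 in SPF mice, that of 6 interneuron markers was 66.4 to 83.6 against 89.7 to 165, and that of 6 oligodendrocyte markers was 151 to 172 against 189 to 309. In interneurons, 6 excitatory markers summed to 796 to 947 in GF mice and 575 to 749 in SPF mice, the oligodendrocyte markers to 92.5 to 111 against 143 to 259.8, and the microglial markers to 74.5 to 75.6 against 54.6 to 62.0. No marker of these lists was at 0. Cluster 1 (led by C1ql3, Gm42477 and Cdh9) held 29.3% of GF excitatory nuclei, while cluster 11 (led by Trpc6, Synpr and Sema5a) held 33.4% of SPF and 34.9% of CGF ones. Cluster 0 (led by Igfbpl1, Ttr and Tmsb4x), of few UMIs per nucleus, held 1484 GF, 645 SPF and 336 CGF excitatory nuclei. All Hip interneurons were in 1 cluster. The part of these differences in the results was not tested.

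In PFC excitatory neurons 8 of the 9 genes differed between GF and SPF mice, 5 higher and 3 lower in GF mice, and the direction of the 4 longest genes was the opposite of that in Hip. Cntnap2, Lrrtm4, Nlgn1, Lrrtm3 and Nrxn3 were higher, and Nrxn2, Cbln2 and Nlgn2 were lower. Among all 16921 genes tested there 62.9% passed, 31.9% as higher and 31% as lower, and the 2 groups were fully apart for 8 of the 9 genes and for 70% of all genes. The confounding of group with library quality in PFC, given above, applies to every value that follows. Clusters kept out of the PFC excitatory sums were also uneven between groups. Cluster 6, led by mitochondrial genes, took no name although 6 of 6 excitatory markers were raised. It held 97 GF, 1605 SPF and 2061 CGF nuclei. Cluster 3 (led by Htr2c, Gm26883 and Olfm3), named as striatal projection neurons, held 1233 GF, 5 SPF and 17 CGF nuclei. This name is uncertain. In an alternative clustering with more components, Gm26883 and Olfm3 were among the leading genes of an excitatory cluster. That cluster held 503 GF, 420 SPF and 380 CGF nuclei, and the striatal cluster there held 275, 184 and 120. Cluster 3 may thus hold GF excitatory neurons left out of the sums, and the part of this in the results was not tested.

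Cntnap2 had 2916, 3541 and 3114 scaled CPM in GF mice and 1291, 1526 and 1437 in SPF mice. Each GF mouse was far above every SPF mouse. The log2 fold change was 1.17 (SE 0.15), a 2.25-fold higher level, with an adjusted p of 3.75e-05 by edgeR. Nrxn2, the shorter neurexin, moved the other way, with 213, 259.6 and 289.8 in GF mice and 469.6, 507.5 and 490.2 in SPF mice. Without overlap between the groups, its change was -0.95 (SE 0.12, adjusted p 3.24e-05 by edgeR). Nrxn3 was at 6296, 6574 and 6415 in GF mice and 4324, 4909 and 4976 in SPF mice. Its change of 0.44 (SE 0.14) had an adjusted p of 0.0182 by edgeR, which became 0.0686 without SPF mouse 30, the lowest of the 6.

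Cbln2 was at 15.1, 15.9 and 14.5 in GF mice and at 22.9, 27.6 and 23.4 in SPF mice. The groups were apart, and the change was -0.70 (SE 0.14, adjusted p 0.000711 by edgeR).

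On the postsynaptic side, Lrrtm4 had 3818, 4703 and 4142 in GF mice and 1895, 2080 and 2121 in SPF mice, a log2 fold change of 1.06 (SE 0.17, adjusted p 0.000219 by edgeR) or 2.08-fold. Nlgn1 had 4792, 4868 and 4795 in GF mice and 2538, 3009 and 3116 in SPF mice (0.74, SE 0.15, adjusted p 0.00104 by edgeR). Lrrtm3 had 479, 530.1 and 537 in GF mice and 339.9, 342.5 and 385 in SPF mice (0.54, SE 0.098, adjusted p 0.000486 by edgeR). In each of these 3 genes the lowest GF mouse was above the highest SPF mouse. Nlgn2 was at 42.8, 44.3 and 41.9 in GF mice and 65.8, 66.1 and 58.8 in SPF mice, with all GF mice below all SPF mice (-0.56, SE 0.090, adjusted p 0.000160 by edgeR). Nlgn3 had 36.3, 43.3 and 37.3 in GF mice and 38.5, 35.1 and 40.4 in SPF mice, which overlapped, with a change of 0.04 and an SE of 0.099.

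PFC interneurons gave 7 calls of 9, 5 higher and 2 lower in GF mice, against 29.7% higher, 27.6% lower and 57.3% in all of 12857 genes. The 2 groups were fully apart for 7 of the 9 genes and for 64.4% of all genes. Nrxn2 was at 234, 225 and 216 in GF mice and at 519, 546 and 516 in SPF mice. The groups lay far apart, and the log2 fold change was -1.23 (SE 0.090, adjusted p 2.91e-09 by edgeR). Cntnap2 was at 7784, 7817 and 7974 against 4143, 4056 and 4157, with little spread in either group (0.93, SE 0.12, adjusted p 3.50e-06 by edgeR). Lrrtm4 had 3724, 3221 and 3685 in GF mice and 1918, 2120 and 2180 in SPF mice (0.77, SE 0.14, adjusted p 0.000107 by edgeR).

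Lrrtm3 (0.51, adjusted p 0.000543) and Nlgn1 (0.50, adjusted p 0.00182) were also higher in GF interneurons of PFC by edgeR, with SEs of 0.11 and 0.12. Nlgn2 had 40.8, 48.0 and 45.4 in GF mice and 67.1, 62.7 and 63.6 in SPF mice, which lay apart (-0.52, SE 0.12, adjusted p 0.000993 by edgeR). Nrxn3 passed narrowly, at 0.31 (SE 0.12, adjusted p 0.0388 by edgeR), and with 8739, 9643 and 9672 in GF mice against 6762, 7959 and 7835 in SPF mice. It did not pass when GF mouse 6, GF mouse 7, CGF mouse 17 or any 1 of the 3 SPF mice was left out, with adjusted p between 0.0529 and 0.154 by edgeR. Cbln2 in interneurons overlapped, with 12.4, 15.2 and 13.1 in GF mice and 13.1, 26.9 and 16.3 in SPF mice (-0.47, SE 0.22, adjusted p 0.0780 by edgeR). It passed without SPF mouse 30, at -0.67 with an adjusted p of 0.0201 by edgeR, with library totals, at -0.55 (adjusted p 0.0468), and with the length and GC trend removed, at -0.91 (adjusted p 0.00157). Nlgn3 was at 0.04 (SE 0.12).

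**Figure D4:**
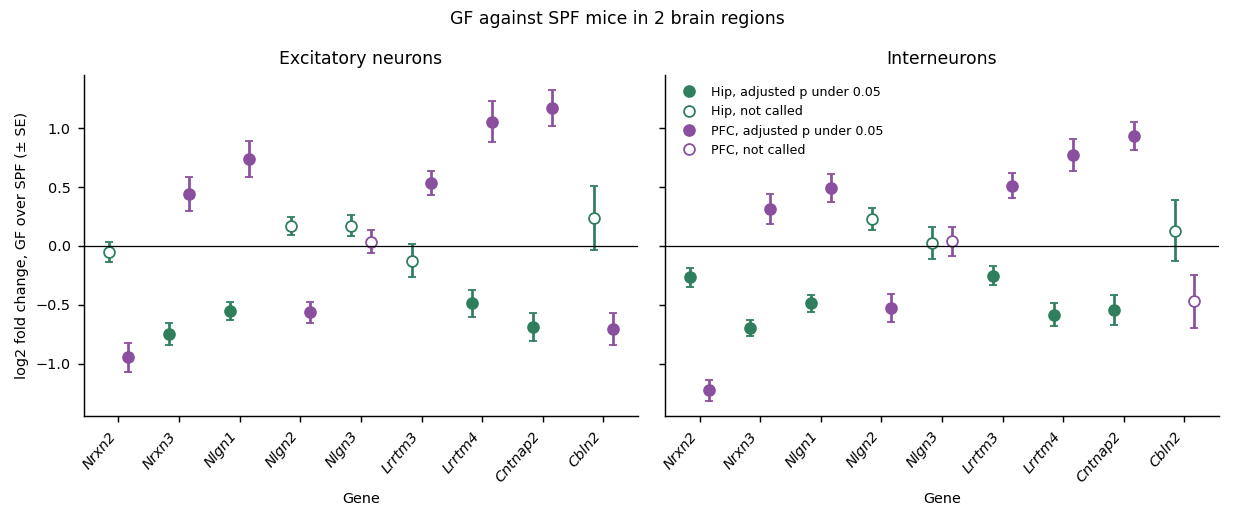
Log2 fold change of GF over SPF mice for each gene in excitatory neurons and interneurons, Hip against PFC, with bars of 1 SE and filled points for adjusted p under 0.05 by edgeR. Nrxn3, Nlgn1, Lrrtm4 and Cntnap2 lie below 0 in Hip and above 0 in PFC, and Nrxn2 and Nlgn2 lie below 0 in PFC (-0.95 and -0.56 in excitatory neurons).

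In PFC the medians of all genes were not ordered by gene span in the way of Hip. The calls of the members were split both by span and by the GC content of the longest transcript. Genes called higher in GF excitatory neurons spanned 161.8 kb (Lrrtm3) or more, and those called lower 125.4 kb (Nrxn2) or less. GC content was 38.4% (Lrrtm4) to 47.5% (Nrxn3) in the genes called higher. In those called lower it was 48.5% (Cbln2), 60.7% (Nlgn2) and 62.4% (Nrxn2), and in Nlgn3, not called, 49.3%. These genes do not tell span and GC content apart, and the part of either in these directions was not tested. The median over all genes of more than 300 kb was 0.14 in excitatory neurons, where 34.1% passed as higher and 18% as lower, and 0.06 in interneurons. Cntnap2 lay 1.03 above the median of its class in excitatory neurons, Lrrtm4 0.92, Nlgn1 0.60 and Nrxn3 0.30, while Nrxn2 lay 0.95 under that of genes from 100 to 300 kb. With the trend on length and GC content removed, 7 of the 8 calls in excitatory neurons and 4 of the 7 in interneurons were made again. In excitatory neurons Cntnap2 was then at 0.72 (SE 0.10), Lrrtm4 at 0.65 (SE 0.12), Nrxn2 at -0.31 (SE 0.11), Nlgn2 at -0.25 (SE 0.074) and Cbln2 at -1.24 (SE 0.14), and Nrxn3, at 0.07, no longer passed. In interneurons Nrxn2 was then at -0.56, Cntnap2 at 0.53, Lrrtm3 at 0.36 and Lrrtm4 at 0.36, and the calls of Nlgn1 (0.09), Nlgn2 (-0.16) and Nrxn3 (0.02) were lost.

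The PFC neuron subtypes gave the same directions, again as a description. Cntnap2, Lrrtm4, Nlgn1, Lrrtm3 and Nrxn3 had higher GF means in 10 of the 10 subtypes that could be compared, with median log2 ratios of 0.91, 0.83, 0.42, 0.32 and 0.39. Nrxn2 (median -1.20) and Nlgn2 (-0.69) had lower GF means in 10 of 10, and all GF mice lay below all SPF mice in each of the 10. Cbln2 was lower in 8 and higher in 1 (median -0.445), with all GF mice below all SPF mice in 5. Nlgn3 was higher in 3 and lower in 7.

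Cluster 4 (led by Sorbs2os, Nrg3os and Gm15738) held 70.7% of GF excitatory nuclei of PFC, and cluster 5 (led by Robo3, Ephb6 and Lrrc45) held 57.3% of SPF and 52.5% of CGF ones. Among interneurons, cluster 19 (led by Gm26905, Erbb4 and Galntl6) held 95.4% of GF nuclei and cluster 0 (led by Kcnmb2, Btbd11 and Npas1) 99% of SPF nuclei. The summed level of 6 astrocyte markers in excitatory neurons was 105 to 129 CPM in GF mice and 212 to 256 in SPF mice, that of 6 interneuron markers was 52.4 to 84.5 against 98.9 to 119, that of 7 microglial markers was 58.6 to 64.7 against 49.8 to 53.6, and that of 6 choroid plexus markers was 5.73 to 7.49 against 1.55 to 1.77, with no marker at 0. In interneurons GF mice had 209.6 to 222 for the astrocyte markers against 269 to 303 in SPF mice. The microglial markers summed to 69.4 to 81.2 against 50.8 to 60.5, and those of choroid plexus to 9.08 to 11.8 against 2.06 to 3.76, with 2 of the 6 at 0 in SPF mice. The part of these in the results was not tested.

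Glia were tested in the same way. In Hip, 3 genes were lower in GF astrocytes, 3 in OPCs and 3 in microglia, and oligodendrocytes had 5 lower and 1 higher, against 28.1% of all gene tests in the 4 glial types passing in either direction. These counts include genes at or below the markers of free neuronal RNA: Cntnap2 in astrocytes (-1.54), oligodendrocytes (-1.60) and microglia (-1.93) and Lrrtm4 in oligodendrocytes (-1.03). In Hip microglia 6 of the 9 genes were at or below them. Nrxn3 and Nlgn1 were lower in all 4 types, although Nrxn3 was above those markers only in OPCs and Nlgn1 only in OPCs and astrocytes. Nrxn3 was lower by 0.76 on the log2 scale in OPCs (SE 0.12, adjusted p 0.000629 by edgeR), where its level stood above the markers of free neuronal RNA. Lrrtm3 was the exception, higher in GF oligodendrocytes by 0.72 (SE 0.15, adjusted p 0.00124 by edgeR), with means of 419 ± 80.3 in GF and 255 ± 15.1 in SPF mice (n = 3 each). None of the 3 calls in Hip OPCs passed once the trend on length and GC content was removed. Nlgn1 then passed in none of the 4 types (-0.05 in OPCs, 0.12 in astrocytes, -0.25 in microglia and 0.09 in oligodendrocytes), and Nrxn3 passed in astrocytes (-0.56) and oligodendrocytes (-0.87) but not in microglia (-0.27). With likely doublets removed, calls in Hip rose from 3 to 5 in astrocytes, 3 to 5 in microglia and 3 to 4 in OPCs, all lower in GF mice. Lrrtm4 then went from -0.66 to -1.86 in astrocytes, from -0.33 to -2.76 in microglia and from -1.03 to -2.58 in oligodendrocytes. Nlgn1 in microglia went from -1.11 to -2.98 and Cntnap2 in OPCs from -0.70 to -1.50. Hip oligodendrocytes of the groups lay mostly in different clusters, 59.8% of GF nuclei in cluster 7 (led by Aspa, Prr5l and Mog) and 68.7% of SPF and 59.7% of CGF nuclei in cluster 8 (led by Prr5l, Rnf220 and Mobp).

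In PFC glia, 7 genes passed in astrocytes (1 higher and 6 lower in GF mice), 7 of 8 tested in OPCs (5 higher and 2 lower), 5 in oligodendrocytes (4 higher and 1 lower) and 4 in microglia (3 higher and 1 lower), against 39.2% of all gene tests. In astrocytes Lrrtm4 (-1.33), Lrrtm3 (-1.08), Nrxn2 (-0.98), Cntnap2 (-0.93), Nrxn3 (-0.85) and Nlgn2 (-0.59) were lower, of which Lrrtm4, Lrrtm3, Cntnap2 and Nrxn3 were at or below the markers of free neuronal RNA. In oligodendrocytes and in microglia of PFC 6 of the 9 genes were at or below those markers, among them all 4 genes called higher in oligodendrocytes (Cntnap2, Lrrtm3, Lrrtm4 and Nlgn1) and all 4 called in microglia (Cntnap2, Lrrtm4, Nlgn1 and Nrxn2), and of the OPC calls Cntnap2 was. Lrrtm3 was higher in GF oligodendrocytes of PFC by 1.28 (SE 0.16, adjusted p 4.62e-07 by edgeR), as in those of Hip. It was at 1.68 with likely doublets removed and at 1.88 with nuclei typed one by one from their markers, both past the threshold. Nrxn2 was lower in all 4 types, by 0.76 in OPCs, 0.98 in astrocytes, 0.99 in oligodendrocytes and 0.95 in microglia. With the length and GC trend removed it passed only in oligodendrocytes (-0.37, adjusted p 0.0308 by edgeR), and was at -0.21 in OPCs, -0.25 in astrocytes and -0.35 in microglia with adjusted p of 0.182, 0.104 and 0.113 by edgeR. Nlgn1 was higher in GF astrocytes by 0.66 (SE 0.15, adjusted p 0.000792 by edgeR) and in OPCs by 0.82 (SE 0.15, adjusted p 5.03e-05 by edgeR). Some PFC glial directions turned with the choice of nuclei: Cntnap2 in OPCs went from 0.83 to -0.81 with likely doublets removed, and in microglia typed one by one from their markers Cntnap2 went from 1.01 to -1.0, Lrrtm4 from 0.80 to -1.22 and Nlgn1 from 0.52 to -0.98, all past the threshold. All OPC calls in PFC were lost with the length and GC trend removed. The groups lay in different clusters in every glial type of PFC. Of GF nuclei, 99.2% of astrocytes sat in cluster 21 (led by Apoe, Htra1 and Slco1c1), 78.9% of oligodendrocytes in cluster 15, 78.9% of OPCs in cluster 14 (led by Lhfpl3, Pdgfra and Gm38505) and 80.5% of microglia in cluster 20 (led by Inpp5d, Selplg and Cx3cr1). Of SPF nuclei, 99.8% of astrocytes sat in cluster 13, 98.6% of oligodendrocytes in cluster 9, 99.5% of OPCs in cluster 10 and 98.8% of microglia in cluster 8.

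GF mice were also set against CGF mice, a comparison that shares the GF mice with the one above. In excitatory neurons CGF mice 17, 18 and 19 had 5154, 5137 and 4775 for Nrxn3, 3498, 3110 and 2909 for Cntnap2, 5920, 5493 and 5266 for Nlgn1 and 5575, 6160 and 6476 for Lrrtm4. Every CGF mouse was above every GF mouse for these 4 genes. The GF minus CGF changes were -0.76, -0.81, -0.66 and -0.68 on the log2 scale, and all 4 passed. Nlgn2, at 27.4, 27.9 and 30.4 in CGF mice, was higher in GF mice by 0.37 (adjusted p 0.00339 by edgeR), and by 0.46 in interneurons (adjusted p 0.00170 by edgeR). Nrxn2 in interneurons, at -0.07 (adjusted p 0.486 by edgeR), did not pass. Of the 18 tests in both neuron types of Hip 11 passed, 2 higher and 9 lower, against 45.6% of all gene tests, and 1 passed after the length and GC trend was removed. In PFC 15 of 18 passed, 11 higher and 4 lower, against 59.3%. Cntnap2 had 1360, 1695 and 1106 in CGF excitatory neurons, below every GF mouse, and its change was 1.20, and Nrxn2 had 427, 495 and 534, above every GF mouse, with a change of -0.93. Among these calls, Nrxn3 in PFC interneurons (0.35) did not pass without GF mouse 6, GF mouse 7, CGF mouse 17 or CGF mouse 19, and Nlgn3 there (0.34) did not pass without GF mouse 6, CGF mouse 18 or CGF mouse 19, with adjusted p of 0.0613 to 0.105 by edgeR.

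None of the 9 genes passed between CGF and SPF mice in neurons. In Hip, 0 of 18 tests passed by edgeR, where 0.55% of all gene tests did, and 4 had an unadjusted p under 0.05, which were Nrxn2 and Nlgn2 in both neuron types. DESeq2 also called 0, with 3 at an unadjusted p under 0.05. The log2 fold changes of CGF over SPF mice lay between -0.23 and 0.20 with SEs of 0.067 to 0.27, and the lowest adjusted p was 0.244. In PFC, 0 of 18 passed by edgeR, against 0.349% of all gene tests, and 3 had an unadjusted p under 0.05, which were Cbln2 and Nlgn2 in excitatory neurons and Nlgn3 in interneurons. DESeq2 called 0 there, with 1 at an unadjusted p under 0.05. Changes ran from -0.43 to 0.07 with SEs of 0.090 to 0.24. In glia 0 of 34 tests passed in Hip and 0 of 35 in PFC by edgeR, with 5 and 0 at an unadjusted p under 0.05, and DESeq2 called 1 in Hip and 0 in PFC. A miss of the threshold does not show that the groups are alike.

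Regions were compared within each group on the summed UMIs of 4 cell types (excitatory neurons, interneurons, astrocytes and OPCs). In SPF mice 28 of 36 tests passed, 15 higher and 13 lower in Hip, against 53.4% of all gene tests, and in CGF mice 28 of 36, 16 higher and 12 lower, against 54.9%. In GF mice 16 passed, 3 higher and 13 lower, against 16.7%. Cbln2 was lower in Hip than in PFC excitatory neurons in every group, by 2.51 on the log2 scale in GF (SE 0.21), 3.39 in SPF (SE 0.22) and 3.01 in CGF mice (SE 0.22). Nrxn2 was also lower in Hip excitatory neurons in every group, by 0.84, 1.68 and 1.92 in the same order.

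In excitatory neurons the direction of Cntnap2 between regions depended on the group. Its level was lower in Hip than in PFC excitatory neurons of GF mice, at -0.74 (SE 0.14, adjusted p 0.000512 by edgeR), and higher in SPF mice, at 1.17 (SE 0.14, adjusted p 1.13e-06 by edgeR), and in CGF mice, at 1.32. Lrrtm4 in excitatory neurons was at -0.08 (SE 0.15, not past the threshold) in GF mice, 1.52 (SE 0.16) in SPF mice and 1.70 (SE 0.16) in CGF mice. In interneurons it was higher in Hip in every group, by 0.45 (GF), 1.80 (SPF) and 1.95 (CGF). Nrxn3 in interneurons was at -0.03 (SE 0.093, not past the threshold) in GF mice and 0.98 (SE 0.094) in SPF mice. The test of the difference between GF and SPF mice in the Hip-to-PFC change passed for 24 of 36, 8 higher and 16 lower, against 38.5% of all gene tests, and Cntnap2 in excitatory neurons had the largest of the neuron values, at -1.91 (SE 0.20, adjusted p 5.25e-07 by edgeR). With library totals 24 passed, 9 higher and 15 lower, while the median of all genes in excitatory neurons moved by 0.37, from -0.12 to 0.26, and the share of calls that were higher went from 43.5% to 66.1% there and from 45.6% to 61.4% in interneurons. With the length and GC trend removed 17 passed, 7 higher and 10 lower, 13 of them among the 24. Cntnap2 in excitatory neurons was then at -0.93 for this difference, from -0.55 in GF and 0.38 in SPF mice, and Nrxn3 in interneurons at -0.26. PFC libraries of SPF and CGF mice were the shallow ones, so group, region and depth cannot be told apart in this contrast.

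The wider set of synaptic partners, 56 genes in 8 lists, gave the setting for these changes. In Hip excitatory neurons 30 of 55 tested passed, 6 higher and 24 lower in GF mice (median log2 fold change -0.32), against 46.4% of all genes, and in interneurons 30 of 54, 3 higher and 27 lower (-0.33), against 44%. In PFC 38 of 54 passed in excitatory neurons, 22 higher and 16 lower (0.15), against 62.9%, and 41 of 53 in interneurons, 26 higher and 15 lower (0.36), against 57.3%. With the trend on length and GC content removed these counts were 16 and 14 in Hip and 37 and 34 in PFC, in the same order of cell types. The median over all genes tested was 0.04 and 0.02 in the neuron types of Hip and 0.01 in both of PFC.

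Of the postsynaptic scaffolds in Hip, 7 of 8 passed in each neuron type, 6 lower and 1 higher, against 46.4% of all genes in excitatory neurons and 44% in interneurons. With the length and GC trend removed 3 of 8 passed in each, 2 lower and 1 higher. In interneurons Gphn, which encodes gephyrin, the scaffold of inhibitory synapses, was lower by 0.57 (SE 0.069, adjusted p 4.48e-05 by edgeR), and Shank2 by 0.57 (SE 0.069, adjusted p 4.38e-05 by edgeR). Without the trend Gphn was at -0.19 (adjusted p 0.0370 by edgeR) and Shank2 at -0.19 (adjusted p 0.0679 by edgeR). Dlg4, which encodes PSD-95, was higher by 0.39 (SE 0.11, adjusted p 0.0103 by edgeR). The presynaptic adaptors were 2 of 3 lower in each Hip neuron type, and 0 of 3 passed with the trend removed. In each PFC neuron type 3 of 3 were higher, against 62.9% and 57.3% of all genes passing, and 3 of 3 passed with the trend removed as well.

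Secreted ligands held the largest rise in Hip. C1ql3, a C1q-like protein that binds neurexin 3, was at 246 ± 14.1 in GF and 86.7 ± 8.79 in SPF excitatory neurons (n = 3 each), a change of 1.5 (SE 0.14, adjusted p 0.000101 by edgeR), and it leads the cluster that held more GF nuclei than any other. It was also higher in GF interneurons by 1.54 (SE 0.20, adjusted p 7.75e-05 by edgeR). Its level there, 63.1 ± 12.5 in GF and 21.8 ± 3.93 in SPF mice (n = 3 each), was below that in excitatory neurons. As given above, excitatory markers were also higher in GF than in SPF interneurons of Hip. The part of free RNA from excitatory neurons in this rise was not tested. In excitatory neurons C1ql2 was at 1.0 (SE 0.35, adjusted p 0.0411 by edgeR), and Nxph1, which encodes a neurexophilin, at -0.87 (SE 0.26, adjusted p 0.0206 by edgeR). With the length and GC trend removed C1ql3 passed in excitatory neurons at 1.11 (adjusted p 0.000250 by edgeR), and C1ql2, at 0.30, and Nxph1, at -0.52, did not. Cntnap5b and Cntnap5c, relatives of Cntnap2, were lower by 0.85 (SE 0.10, adjusted p 0.000228 by edgeR) and 0.80 (SE 0.095, adjusted p 0.000215 by edgeR), and Cntnap1 was higher by 0.38 (SE 0.091, adjusted p 0.00672 by edgeR). In interneurons Clstn3, a neurexin-binding calsyntenin, was higher by 0.49, past the threshold.

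In PFC excitatory neurons the largest rises were those of Flrt3 (2.17, SE 0.14), Cbln4 (1.54, SE 0.26) and Lrrtm1 (1.46, SE 0.11), and the largest falls those of Nxph3 (-2.31, SE 0.22), Slitrk3 (-1.76, SE 0.11) and Nxph2 (-1.45, SE 0.31). Flrt3 encodes an adhesion protein that binds latrophilins, and Slitrk3 a postsynaptic organizer of inhibitory synapses. Nxph3 was at 4.18 ± 1.42 in GF and 20.7 ± 1.1 in SPF mice (n = 3 each). In PFC interneurons Flrt3 (1.96), Kcna1 (1.57) and Lrrtm1 (1.16) rose and Slitrk3 (-1.64), Nxph3 (-1.57) and Clstn3 (-1.10) fell, all past the threshold of edgeR. Kcna1 encodes a potassium channel subunit of the complex that Cntnap2 gathers. Both MDGA genes, whose products block neuroligins, passed as higher in GF excitatory neurons of PFC, where 31.9% of all genes did, and 1 of the 2 did in interneurons, where 29.7% of all genes did.

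The genes whose levels over cell types were most like those of each member are given by Pearson r of log2(level + 1) over 41 cell types and subtypes of both regions, among 14743 genes. The points share libraries and depth, so r is a description. Cntnap2 was most like Snhg11 (r = 0.935) and Meg3 (0.932), and Nrxn3 most like Meg3 (0.910) and B830012L14Rik (0.897), which are noncoding RNAs or gene models abundant in neurons. Nrxn2 was closest to Apc2 (0.905) and Pcdh10 (0.847), Lrrtm3 to Dock3 (0.832) and Slc8a3 (0.830), and Nlgn1 to Dok6 (0.809) and Gria2 (0.801), the latter a subunit of AMPA receptors. Lrrtm4 paired with 4930532I03Rik (0.8) and Grik2 (0.768), a kainate receptor subunit. Nlgn3 was closest to Gpt2 (0.812) and Gucy2f (0.719), Nlgn2 to Gm16223 (0.806) and Cpxm1 (0.799) and Cbln2 to Egr1 (0.808) and Nap1l1 (0.798).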

How the data were processed

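Nuclei were purified from frozen Hip and PFC by the authors and sequenced with the 10x Genomics 3' kit. The authors trimmed reads with Fastp 0.18.0 and made counts with Cell Ranger 3.1.0 on mm10 with Ensembl 92. The deposited values are whole-number counts of UMIs per gene and nucleus, not normalized, and whether intronic reads were counted is not given in the sources used here. Groups, regions and mouse numbers are from the labels. In the study's own summary of its libraries the entries of GF mice 6 and 7 stand exchanged, in both regions, relative to the deposited matrices. The labels were followed here, and which mouse is which does not affect a group mean or a test between groups.

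Nuclei with at least 200 genes and at most 10% mitochondrial UMIs were kept (1924 barcodes were removed). In each region 2000 variable genes, without the 9 genes and their partners, gave 10 components and a graph of 20 neighbours, clustered by Leiden at resolution 1. Clusters were named from marker lists, and neurons were clustered again with 20 components. Likely doublets (0.8% per 1000 nuclei) were kept, and removed in an alternative. The sums of UMIs over the nuclei of each type and mouse were fitted with edgeR 4.0.16 in R 4.3.3 (filterByExpr, TMM, glmQLFit, glmQLFTest) over the 9 mice of a region, or all 18 libraries for the contrast of regions, with Benjamini-Hochberg adjustment over all genes of a type and a threshold of 0.05. Cbln2 did not pass the low-count filter in Hip OPCs and microglia and in PFC OPCs. SE was derived from each log2 fold change and its F statistic. The fits were tested on simulated counts of excitatory neurons. For GF against SPF mice in Hip, edgeR called 27% of 1.5-fold and 51% of 2-fold changes. For the difference between regions it called 7% and 39%, so changes of these sizes can be missed. In each simulation only 100 genes of each fold were changed, drawn from all genes past the low-count filter. A far larger share of genes passed in the data, which makes the adjusted threshold less strict there. The simulated shares therefore do not give the share of changes missed among the 9 genes. Alternatives were DESeq2 1.42.0, library totals, no low-count filter, removal of length and GC trends, thinning, doublet removal, 30 components, nuclei typed one by one from their markers (the marker gate), fits of only the 6 mice compared, the mouse as a block and each mouse left out. Clustering used Python 3.11.15 with scanpy 1.11.5, leidenalg 0.10.2, numpy 2.4.6, scipy 1.17.1, pandas 2.3.3 and scikit-learn 1.9.0.

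The mouse number pairs Hip and PFC of an animal: deviations from group means correlated by 0.151 to 0.483 between the regions of a mouse (9 pairs) and by -0.351 to 0.0447 between other mice of a group (18 pairs). Because each mean is of 3 mice, positive values within a mouse push those between mice down, and the ranges are not independent. The text names all 9 genes, the 3 largest rises and 3 largest falls among partner genes past the threshold in each neuron type and region whose GF and SPF mice did not overlap, and for each member the 2 genes of most like pattern. The values of 1 partner gene so chosen are left out of the text. The members, marker lists, partner lists and tests were chosen with earlier results of these data known. Span, length and GC content came from an annotation of GRCm38 that held 30843 of the 30905 genes (99.8%). Promoters are RefSeq's, and those of Nrxn3 were not printed because their starts lie 71.6 to 1090 kb inside the gene. Replicates are 3 mice per group.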

Additional observations from a re-analysis of the deposited data

Results flagged for a closer look

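The change from SPF to GF mice differed between Hip and PFC for 24 of 36 gene and cell type pairs, tested as an interaction by edgeR in a fit of the 18 libraries (38.5% of all gene tests passed). Values are the GF minus SPF change in Hip minus that in PFC, on the log2 scale. In excitatory neurons Cntnap2 was at -1.91, Lrrtm4 at -1.60, Nlgn1 at -1.35, Nrxn3 at -1.25 and Lrrtm3 at -0.72, and Nlgn2 was at 0.68, Nrxn2 at 0.84 and Cbln2 at 0.89. With the trend of each library on length and GC content removed, these were -0.93 for Cntnap2, -0.72 for Lrrtm4, -0.47 for Nlgn1, -0.36 for Nrxn3, 0.42 for Nrxn2 and 1.16 for Cbln2, which passed, and -0.24 for Lrrtm3 and 0.19 for Nlgn2, which did not. Interneurons gave -1.47 for Cntnap2, -1.36 for Lrrtm4, -1.01 for Nrxn3, -0.98 for Nlgn1 and -0.76 for Lrrtm3, and 0.76 for Nlgn2 and 0.96 for Nrxn2. Without the trend they were -0.61 for Cntnap2, -0.54 for Lrrtm4, -0.26 for Nrxn3, -0.34 for Lrrtm3 and 0.58 for Nrxn2, which passed, and -0.17 for Nlgn1 and 0.22 for Nlgn2, which did not. OPCs had -1.55 for Cntnap2, -1.32 for Lrrtm4, -1.28 for Nrxn3, -1.27 for Nlgn1 and -0.79 for Lrrtm3, and 0.78 for Nrxn2 and 0.87 for Nlgn2. Only Nrxn2, at 0.56, passed in OPCs without the trend. With likely doublets removed Cntnap2, which was at or below the markers of free neuronal RNA in OPCs, was at -0.68 (adjusted p 0.0792 by edgeR). In astrocytes 2 genes were flagged, Nlgn1 at -1.09 and Nrxn2 at 0.90. With the mouse as a replicate block Lrrtm3 (0.85, adjusted p 0.0156), Lrrtm4 (0.68, adjusted p 0.0355) and Cntnap2 (-0.61, adjusted p 0.0275) also passed in astrocytes by edgeR. In PFC astrocytes these 3 genes were at or below the markers of free neuronal RNA. With likely doublets removed Lrrtm4 turned to -0.43 (adjusted p 0.286 by edgeR) and Lrrtm3 was at 0.33 (adjusted p 0.493 by edgeR), and with nuclei typed one by one from their markers Lrrtm4 was at -0.31, Lrrtm3 at 0.30 and Cntnap2 at -0.13, none of which passed. Without the trend Nlgn1 in astrocytes was at -0.83, which passed, and Nrxn2 at 0.47, which did not (adjusted p 0.0704 by edgeR). Depth and mitochondrial share differed between GF and SPF libraries of PFC. Depth per nucleus and mitochondrial share also differed between those of Hip. The part of these differences in the values above was not tested.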

How the results depend on the processing

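Of 648 refits of the 36 neuron log2 fold changes between GF and SPF mice, 615 stayed on their side of the threshold, 26 no longer passed, 6 newly passed and 1 call changed sign. Of the values that had not passed, 23 changed sign. Removing the trend on length and GC content changed the most counts: calls over 6 types fell from 25 to 10 in Hip and from 38 to 22 in PFC, and calls between GF and CGF mice in Hip neurons from 11 to 1, and Lrrtm3 in Hip interneurons turned from -0.25 to 0.03. Genes of any kind called in Hip interneurons went from 5969 to 3329. With library totals the median of all genes moved by 0.16 in Hip excitatory neurons, 0.13 in Hip interneurons and -0.16 in PFC excitatory neurons, and the calls that were higher in GF mice went from 54.3% to 72.5%, 52.6% to 69.5% and 50.7% to 40.5%. The 9 genes then gave 5 higher and 22 lower calls in Hip (1 and 24 before), with Nlgn2 (0.33) and Nlgn3 (0.33) newly passing in excitatory neurons and Nlgn2 in interneurons (0.36) and OPCs (0.54), while Nrxn2 and Lrrtm3 in interneurons were lost. With nuclei typed one by one by markers, region calls in GF mice fell from 16 to 10. With the mouse as a replicate block, GF mice had 17 region calls, SPF mice 29 and CGF mice 30, with 27 for the difference between groups, where 7 pairs newly passed (Nlgn3 and Cntnap2 in CGF OPCs, Nrxn3 in SPF astrocytes, Lrrtm3, Lrrtm4 and Cntnap2 in astrocytes for the difference, Cbln2 in GF interneurons) and no call was lost. Leaving out 1 mouse gave 22 to 27 calls in Hip, 33 to 38 in PFC and 11 to 17 for regions in GF mice. In Hip neurons 177 genes of any kind differed between CGF and SPF mice by edgeR and 716 by DESeq2, and 104 and 387 in PFC. Partner gene calls were 139 of 216, 142 with DESeq2 and 101 with the length trend removed. In PFC, 6 of the 38 calls, all in glia, had the other sign with nuclei typed one by one, and 3 with doublets removed. Depth limits Cbln2, which had 67 to 133 UMIs per GF mouse in Hip excitatory neurons.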
